A study of Mus musculus with 5 samples.

Results

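Crabp1, Crabp2, Aldh1a1, Aldh1a2, Aldh1a3, Cyp26b1, Dhrs3, Rarb and Rarg, genes of retinoid binding, synthesis, turnover and reception, were followed across the cell classes of mouse dorsal skin and between 2 genotypes. The 9 genes were taken by symbol from the 28001 features of the unsorted single-cell matrices, and all 9 had a row. Retinaldehyde is oxidised to retinoic acid by dehydrogenases of the Aldh1a family, and Dhrs3 reduces retinaldehyde back to retinol. Within the cell retinoic acid is carried by the Crabp proteins, degraded by enzymes of the Cyp26 family, and read by nuclear receptors of the Rar family, which bind DNA together with Rxr partners. In skin, retinoids act on keratinocyte differentiation and on the hair follicle, whose dermal papilla, a mesenchymal cluster at the follicle base, signals to the epithelium above it.

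The mutant mice were Lepr-Cre;mTmG;Smo+/- females and the controls Lepr-Cre;mTmG females, both at postnatal day 46, with 2 libraries of unsorted dorsal skin cells per genotype. A further library held GFP-positive cells sorted from Lepr-Cre;mTmG females at postnatal day 50. All mice carried Lepr-Cre, which acts in cells that express or once expressed the leptin receptor, and the membrane tomato to membrane GFP reporter mTmG. The series text also writes the controls with Smo, and no label says how the allele was altered. Per the protocols among the labels, the pair of libraries from each genotype are technical replicates. The p-values therefore cover the spread between preparations and not between mice.

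Promoter windows of 3 members are printed because the results return to them. Rarb is the receptor whose level was called changed in papilla cells, and Crabp1 and Cyp26b1 had their highest levels in the follicle and dermal mesenchyme. The RefSeq table (GRCm38.p6) held 11 windows for 7 of the 9 members, each from 250 bases before to 50 bases after an annotated start. Each sequence reads 5′ to 3′ on the strand of its gene.
Rarb: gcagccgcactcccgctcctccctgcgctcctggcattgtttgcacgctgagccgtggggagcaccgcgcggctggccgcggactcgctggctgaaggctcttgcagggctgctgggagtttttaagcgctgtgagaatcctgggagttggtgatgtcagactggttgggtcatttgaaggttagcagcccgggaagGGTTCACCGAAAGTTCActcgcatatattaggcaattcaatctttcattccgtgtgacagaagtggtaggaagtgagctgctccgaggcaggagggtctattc
Crabp1: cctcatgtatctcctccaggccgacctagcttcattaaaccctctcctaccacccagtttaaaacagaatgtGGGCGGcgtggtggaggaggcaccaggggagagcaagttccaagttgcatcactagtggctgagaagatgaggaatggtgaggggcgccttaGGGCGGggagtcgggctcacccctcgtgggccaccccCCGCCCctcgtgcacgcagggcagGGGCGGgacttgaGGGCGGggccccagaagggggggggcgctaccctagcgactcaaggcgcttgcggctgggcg
Cyp26b1: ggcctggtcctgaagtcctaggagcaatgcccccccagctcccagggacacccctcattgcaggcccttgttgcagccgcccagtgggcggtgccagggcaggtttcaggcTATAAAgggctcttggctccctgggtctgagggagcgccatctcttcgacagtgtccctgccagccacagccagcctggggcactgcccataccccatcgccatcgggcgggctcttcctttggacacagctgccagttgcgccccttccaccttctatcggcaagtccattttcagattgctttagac
The Rarb window covers chr14:16575427-16575726 on the minus strand. Its capitals mark a direct repeat of 2 half-sites spaced by 5 bases, the form of retinoic acid response element known from this promoter, and its first base lies 53 bases before the start. The search took AGGTCA as the first form of a half-site, AGTTCA as the second form, GGGTCA as the third form and GGTTCA as the fourth form, on both strands, with spacings of 1, 2 and 5 bases. With a spacing of 5 the repeat was found in 32 of 32851 windows of the table (0.0974%) and in 1 of the 11 windows of the members. Spacings of 2 and of 1 were found in 0.268% and 0.222% of all windows and in none of the 11. The Crabp1 window covers chr9:54764498-54764797 on the plus strand, and its capitals mark 5 copies of GGGCGG, 1 of them on the minus strand and so written CCGCCC. The copies do not overlap, and the first begins 178 bases before the start. GGGCGG lay in 35.7% of all windows and in windows of Crabp1, Cyp26b1 and Rarg. The Cyp26b1 window covers chr6:84593761-84594060 on the minus strand. Its capitals mark TATAAA, 139 bases before the start, which 13.6% of all windows hold. No match overlaps a match of another motif in capitals. These matches describe the letters of the windows and no binding.

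The unsorted libraries held 11563 and 11816 barcodes in the mutant and 10748 and 11072 in the control, with 147245343 to 171197845 unique molecular identifiers (UMIs, counts of captured RNA molecules) per library. After filtering, 8384 and 8673 mutant and 8102 and 8241 control cells remained, with medians of 8323 to 9756 UMIs. Each cell was put in a class by the summed level of marker genes, with none of the 9 members among them, and every class expressed all markers of its own list that the features held. Of the classes, 15 had at least 20 cells in each library. A level is given as CPM, the UMIs of a gene per 1000000 UMIs of the class in that library. Smo, the gene named in the mutant label, stood at 40.1 and 39.4 CPM in mutant and 33.2 and 34.7 CPM in control papilla-gated cells, a log2 difference of 0.27 that was not called (edgeR adjusted p = 0.0827). Molecules tagged at the 3′ end may not show an altered allele. Ptch1, a target of Hedgehog signalling through Smo, stood at 217 and 249 CPM in mutant and at 42.8 and 55.7 CPM in control papilla-gated cells, and was called higher in the libraries labelled Smo+/- (log2 2.30). Leiden cluster 14 of the papilla-gated cells held 258 and 292 mutant cells against 0 and 2 control cells. Papilla differences of members that passed the adjusted p were therefore also taken without the clusters of 1 genotype (14 and 2 others), where the gene could still be tested. Of those clusters, cluster 20, of fibroblast type, held 599 mutant and 16 control cells, 382 of them in the fibroblast gate. For genes other than the members, Ptch1 among them, no papilla value without these clusters is given. Between 24 and 46 barcodes were shared by any pair of unsorted libraries, and none with the sorted library.

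**Figure D1:**
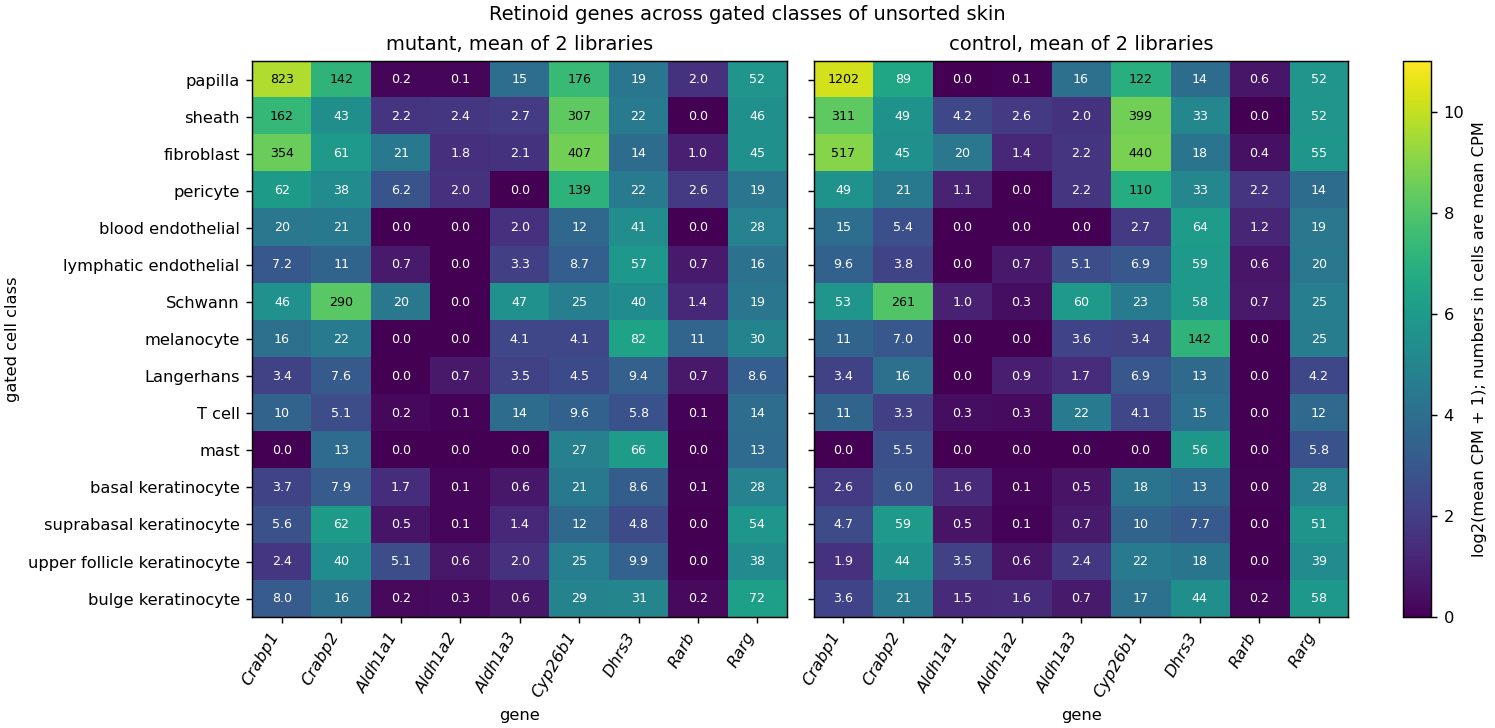
Mean level of each member (columns) in the 15 gated classes (rows), with mutant cells in the left panel and control cells in the right one. The colour is log2 of the mean CPM of the 2 libraries plus 1, and the printed numbers are mean CPM. Crabp1 is highest in papilla, Cyp26b1 in fibroblasts and Crabp2 and Aldh1a3 in Schwann cells in both panels.

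Differences between genotypes were tested with edgeR's quasi-likelihood test on the UMI sums per library and class. The call rule asked for both a change of at least 2-fold (1 on the log2 scale) and an adjusted p under 0.05, by the Benjamini-Hochberg method over all genes tested in the class. In papilla-gated cells 7 members had enough UMIs for the test and 1 was called, against 5.62% of all genes tested there. Without the fold minimum 5 of the 7 passed, against 25.3% of all genes. In fibroblast-gated cells 0 of 8 tested members were called (all genes, 1.95%). There 3 passed without the fold minimum (all genes, 12.2%), 4 had an unadjusted p under 0.05, and DESeq2 also called 0. The median log2 difference was 0.50 over the 7 members tested in papilla and -0.06 over the 8 tested in fibroblasts, against -0.00 and 0.00 over all genes. The sheath gate, named for the dermal sheath that wraps the follicle, overlapped the fibroblast clusters: of its 772 cells 210, 89, 138 and 54 lay in Leiden clusters 7, 12, 20 and 28, which hold fibroblasts, and 203 in cluster 23. In sheath-gated cells 0 of 5 tested members were called (all genes, 1.72%), 1 without the fold minimum (all genes, 6.1%) and 2 at an unadjusted p under 0.05, and DESeq2 called 0.

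Outside the mesenchyme, members were called in 2 classes. Of 6 members tested in T cell-gated cells 2 were called, against 3.8% of all genes there, and of 7 tested in Schwann-gated cells 1 was called, against 0.132%. The keratinocyte classes had 0 called of 7 in basal (all genes, 2.54%), of 7 in suprabasal (1.34%), of 6 in upper follicle (0.291%) and of 5 in bulge cells (2.15%) with edgeR and with DESeq2. At an unadjusted p under 0.05 there were 4 in basal, 1 in suprabasal, 1 in upper follicle and 4 in bulge cells. Pericytes, blood and lymphatic endothelium, and melanocytes had 0 called of 4, 3, 5 and 1 tested (all genes, 0.416%, 0.92%, 0.611% and 0), with 1 at an unadjusted p under 0.05, Crabp2 in lymphatic endothelium, and 0 by DESeq2. In Langerhans and mast cells none of the 9 had enough UMIs for the test.

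**Figure D2:**
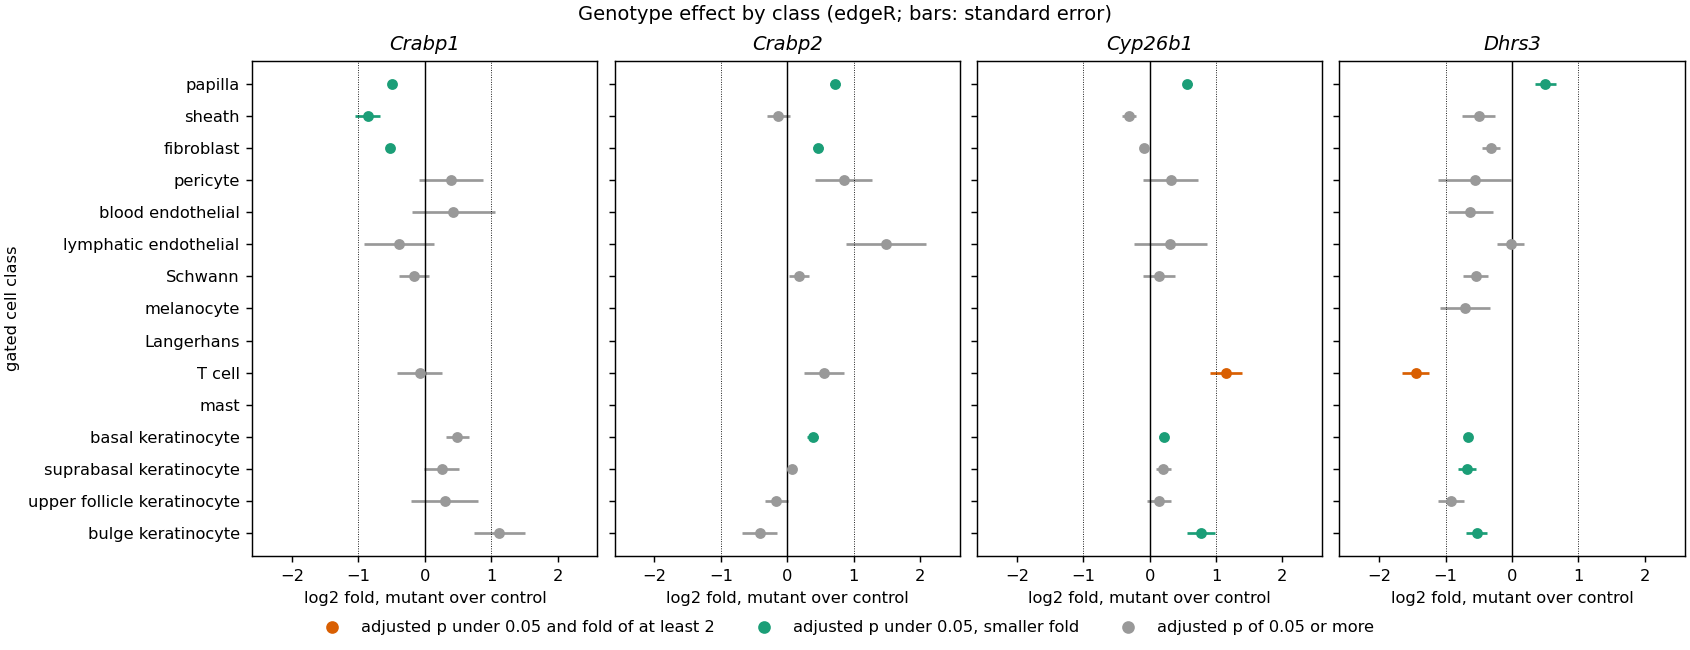
Log2 difference, mutant over control, of Crabp1, Crabp2, Cyp26b1 and Dhrs3 in each class where the gene was tested, with its standard error as a bar. Orange points passed adjusted p under 0.05 with at least a 2-fold change, green points passed the adjusted p with a smaller change, and grey points did not pass. Dhrs3 lies below 0 in 12 of 13 classes and above it in papilla.

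Crabp1 (ENSMUSG00000032291, chr9:54764748-54773110, plus strand), which encodes a cytosolic carrier of retinoic acid, was highest in papilla-gated cells and was lower there in the mutant than in the control. Papilla-gated cells had 825 and 822 CPM in the mutant and 1198 and 1206 CPM in the control libraries. Fibroblast-gated cells came next in both genotypes, with 340 and 367 CPM in the mutant and 508 and 527 CPM in the control libraries. The mutant libraries lay below both control libraries in each class, with no overlap. Sheath-gated cells were the third class, at 174 and 150 CPM in the mutant and 409 and 213 CPM in the control libraries, the control values lying far apart. These 3 classes did not overlap one another in either genotype, while most neighbours further down the order did. Pericyte-gated cells, at 72.3 and 52.1 CPM in the mutant and 79.7 and 17.8 CPM in the control, and Schwann-gated cells, at 57.6 and 34.2 CPM in the mutant and 57.4 and 48.2 CPM in the control, followed.

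The genotype difference of Crabp1 was -0.50 ± 0.058 on the log2 scale in papilla (SE, edgeR adjusted p = 1.3e-06) and -0.52 ± 0.054 in fibroblasts (adjusted p = 3.54e-05), below the 2-fold minimum in both. It was -0.86 ± 0.19 in sheath cells (adjusted p = 0.0117), also below the minimum. That sheath value rested on 1 library: it was -0.33 (adjusted p = 0.226) without control replicate 1 and -1.25 (adjusted p = 9.31e-12) without control replicate 2. Without the Leiden clusters with at least 90% of their cells from 1 genotype, a setting chosen after the data were seen, it became -0.12 (adjusted p = 0.178) in papilla, -0.24 (adjusted p = 0.00891) in fibroblasts and -0.12 (adjusted p = 0.908) in sheath cells. Papilla-gated cells of cluster 0 had 1042 and 1048 CPM in the mutant and 1204 and 1210 CPM in the control libraries. Those of cluster 14, nearly all mutant, had 322 and 342 CPM. Cluster 14 made up 35.2% and 39.8% of the mutant papilla gate, against 0 and 0.637% of the control one. Levels of red cell genes moved with genotype in this gate: the 4 erythrocyte markers, all detected in every library, summed to 1107 to 1284 CPM in the mutant and 17.3 to 21.3 CPM in the control, and their part in the result was not tested. The 9 fibroblast markers, also all detected, summed to 1474 to 1489 CPM there in the mutant and 796 to 803 CPM in the control.

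Fibroblasts differed among themselves far more than between genotypes in Crabp1. Fibroblasts gated on Coch had 1200 and 1316 CPM in the mutant and 1326 and 1375 CPM in the control, as high as papilla cells. Fibroblasts gated on Pi16, Dpp4, Sema3c and Cd55 had 7.45 and 14.1 CPM in the mutant and 29.2 and 30.0 CPM in the control. The remaining fibroblasts had 33.4 and 29.1 CPM in the mutant and 45.2 and 59.7 CPM in the control. The Coch-gated cells thus carried most of the fibroblast level, and they made up 27.8% and 27.5% of the mutant against 34.0% and 34.3% of the control fibroblasts. Within them 0 of 5 tested members were called (all genes, 0.385%), 0 at an unadjusted p under 0.05 and 0 by DESeq2, and Crabp1 stood at log2 -0.08 (adjusted p = 0.616). The Pi16-type gate had 1 called of 6 tested members (all genes, 0.589%): Crabp1 fell, with a log2 change of -1.38 ± 0.31 (edgeR adjusted p = 0.0425). This call was lost with DESeq2, with no filter on low counts, and without mutant replicate 1, control replicate 1 or control replicate 2. In the remaining fibroblasts Crabp1 was lower (log2 -0.72 ± 0.12, adjusted p = 0.000759), below the 2-fold minimum.

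In whole libraries the order of the genotypes was the reverse. Over all kept cells Crabp1 stood at 115 and 123 CPM in the mutant and 91.8 and 88.2 CPM in the control, and Cyp26b1 at 87.3 and 89.1 CPM in the mutant and 49.8 and 47.4 CPM in the control. The papilla gate held 732 and 733 mutant and 312 and 314 control cells, and the fibroblast gate 1239 and 1271 mutant and 839 and 792 control cells. In such sums more cells of a class and more RNA per cell cannot be told apart. Cells that met no class rule also differed, at 228 and 265 CPM of Crabp1 in the mutant and 88.0 and 121 CPM in the control.

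Single cells showed the same order of Crabp1 after thinning each to 2000 UMIs. A UMI of Crabp1 was then found in 58.2% and 54.7% of mutant and 77.8% and 74.0% of control papilla-gated cells (unthinned, 77.9% and 76.8% of mutant and 87.2% and 87.9% of control cells). The thinned share was 22.5% and 22.6% in mutant and 29.0% and 29.3% in control fibroblasts. T cell-gated cells, a class in which the gene was low, gave 1.07% and 1.95% in the mutant and 1.5% and 1.22% in the control. Papilla and fibroblast shares lay far above that level in each library.

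**Figure D3:**
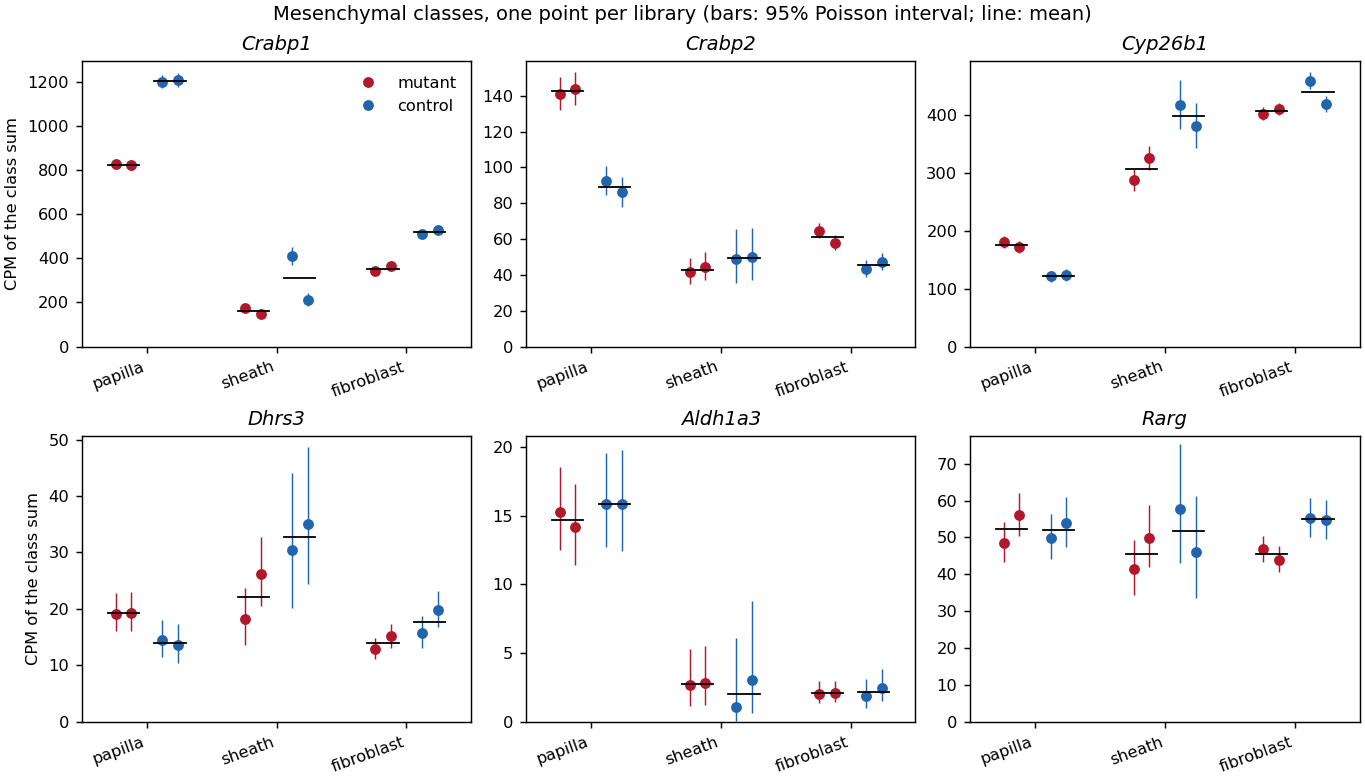
CPM of Crabp1, Crabp2, Cyp26b1, Dhrs3, Aldh1a3 and Rarg in papilla-gated, sheath-gated and fibroblast-gated cells, with 1 point per library, a line at the mean of the 2 libraries and bars for the 95% Poisson interval of the count. Mutant libraries (red) stand left of control libraries (blue). In papilla Crabp1 is lower and Crabp2 and Cyp26b1 are higher in both mutant libraries.

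Crabp2 (ENSMUSG00000004885, chr3:87948666-87953376, plus strand) encodes the carrier that delivers retinoic acid to its nuclear receptors, and its highest class was not mesenchymal. Schwann-gated cells, the glia of peripheral nerves, had 272 and 308 CPM in the mutant and 313 and 209 CPM in the control libraries, with overlap between genotypes. Papilla-gated cells followed, at 141 and 144 CPM in the mutant and 92.3 and 86.1 CPM in the control, with no overlap. Suprabasal keratinocytes had 62.9 and 62.0 CPM in the mutant and 59.4 and 58.9 CPM in the control, and fibroblasts had 64.6 and 58.0 CPM in the mutant and 43.4 and 47.3 CPM in the control. In the mutant these last 2 classes overlapped, and in the control suprabasal cells lay above fibroblasts. The Schwann level came mainly from 1 of 2 clusters: cluster 13, the cells rich in Scn7a, had 369 and 407 CPM in the mutant and 436 and 291 CPM in the control. Cluster 24, the cells rich in the myelin gene Mbp, had 71.1 and 112 CPM in the mutant and 34.7 and 54.4 CPM in the control. A thinned share of 19.1% and 19.5% of mutant and 21.0% and 17.3% of control Schwann-gated cells held a UMI, against 0.458% to 1.07% of T cell-gated cells.

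Crabp2 was higher in mutant papilla (log2 0.72 ± 0.079, edgeR adjusted p = 7.52e-07, and 0.74 without the clusters of 1 genotype), fibroblasts (0.47 ± 0.08, adjusted p = 0.00184) and basal keratinocytes (0.38 ± 0.080, adjusted p = 0.00386), below the 2-fold minimum in each. Basal cells had 7.77 and 8.13 CPM in the mutant and 5.69 and 6.26 CPM in the control, and the basal difference missed the threshold with DESeq2 (adjusted p = 0.0568). The summed fibroblast markers moved the same way in the basal gate, at 371 to 389 CPM in the mutant and 255 to 264 CPM in the control, and their part in the result was not tested. Among fibroblast subsets, a called change was found in the cells outside both gates, where Crabp2 rose to 57.2 and 53.2 CPM in the mutant, against 23.0 and 19.8 CPM in the control (log2 1.40 ± 0.12, adjusted p = 2.85e-07, 1 of 8 tested members called against 2.46% of all genes). Coch-gated fibroblasts had 102 and 88.0 CPM in the mutant and 79.3 and 96.6 CPM in the control, with overlap. The difference between these subsets was not tested, and the fits within them were not repeated without the clusters of 1 genotype. In the whole fibroblast gate without those clusters Crabp2 differed by log2 0.65 (adjusted p = 3.42e-04). Fibroblasts were also split by a UMI of eGFP, the reporter of Lepr-Cre action. Those with one had 80.6 and 69.0 CPM of Crabp2 in the mutant and 43.6 and 45.4 CPM in the control. Fibroblasts without one had 43.6 and 46.4 CPM in the mutant and 43.3 and 48.3 CPM in the control, and here the genotypes overlapped. Cells with and without a UMI of eGFP thus lay apart in the mutant and overlapped in the control, and this difference was not tested. A cell with few UMIs can miss the reporter, so the cells without a UMI of eGFP are not all cells without the reporter.

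**Figure D4:**
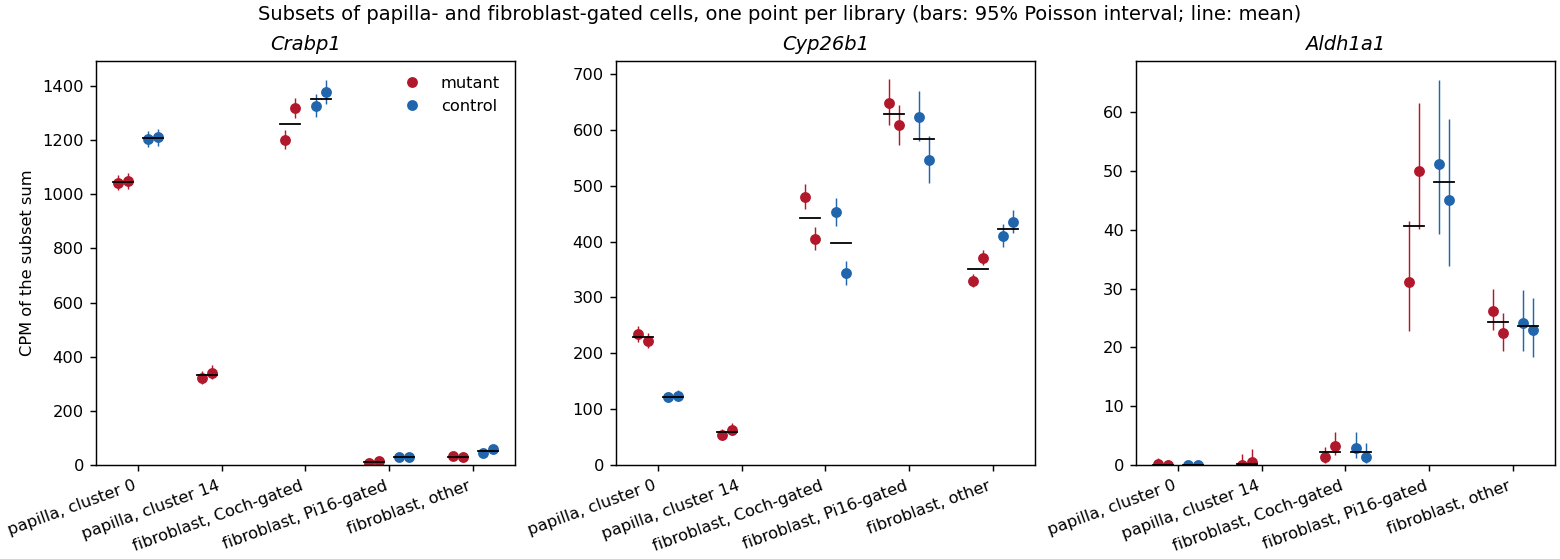
CPM of Crabp1, Cyp26b1 and Aldh1a1 in papilla-gated cells of Leiden clusters 0 and 14 and in Coch-gated, Pi16-gated and other fibroblasts, with 1 point per library and bars for the 95% Poisson interval. Mutant libraries (red) stand left of control libraries (blue). Crabp1 is above 1000 CPM in cluster 0 and Coch-gated cells and below 60 CPM in the other fibroblasts, while Aldh1a1 runs the opposite way.

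Aldh1a1 (ENSMUSG00000053279, chr19:20492715-20643465, plus strand), a retinaldehyde dehydrogenase, was found in fibroblasts and was close to absent from papilla cells. Fibroblast-gated cells had 20.2 and 20.9 CPM in the mutant and 20.8 and 18.7 CPM in the control, with overlap and no call (log2 0.09, edgeR adjusted p = 0.659). Papilla-gated cells gave 1 and 1 UMIs in the mutant and 0 and 0 in the control. The 0 of 10292435 UMIs in the control papilla allows up to 0.291 CPM (3 UMIs over both libraries), so the fibroblast level of 19.7 CPM in the control was at least 67.7-fold higher. Fibroblast subsets ran opposite to Crabp1: 1.33 and 3.27 CPM in mutant and 2.90 and 1.45 CPM in control Coch-gated cells, against 31.1 and 50.1 CPM in mutant and 51.1 and 45.0 CPM in control Pi16-gated cells. The other fibroblasts had 26.3 and 22.5 CPM in the mutant and 24.1 and 23.0 CPM in the control. Sheath-gated cells had 3.70 and 0.698 CPM in the mutant and 4.35 and 4.0 CPM in the control.

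Between mesenchymal classes, 4 of 9 members were called for papilla against fibroblasts, near the 30.3% of all genes called, so the count says little of the members as a group. Aldh1a1 and Aldh1a2 were called lower in papilla, Aldh1a3 higher and Cyp26b1 lower. For sheath against fibroblasts 2 of 8 tested members were called (all genes, 4.65%), Crabp1 and Aldh1a1, both lower in sheath cells (log2 -1.05 ± 0.12, adjusted p = 5.15e-06, and -2.96 ± 0.28, adjusted p = 4.62e-07). The Crabp1 call was lost without mutant replicate 2 and without control replicate 2 (log2 -0.95 in both), and without the clusters of 1 genotype (log2 -0.81).

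In Schwann-gated cells Aldh1a1 rose in the mutant. Mutant libraries had 22.4 and 18.6 CPM, from 33 and 25 UMIs, and control libraries had 0.755 and 1.27 CPM, from 1 and 2 UMIs. The log2 change was 4.22 ± 0.52 (edgeR adjusted p = 0.00175) and stayed called under all 12 alternatives, between 3.48 and 4.62. Few cells carried it: 5 of 274 and 9 of 260 mutant cells held a UMI, with up to 13 and 9 UMIs in 1 cell, against 1 of 241 and 2 of 292 control cells. Almost all of these UMIs lay in cluster 13 (33 and 24 in the mutant, 1 and 2 in the control). The 9 fibroblast markers summed to a median of 62.0 and 38.6 per 10000 UMIs in the mutant cells that held Aldh1a1, and of 17.3 and 19.5 in the other mutant Schwann-gated cells. In fibroblasts that held Aldh1a1 that median was 1118 and 1091 in the mutant. Over the whole Schwann gate these markers, all detected, summed to 2111 to 2372 CPM in the mutant and 1757 to 2121 CPM in the control. The difference between the genotype effect in Schwann cells and that in fibroblasts, tested after the data were seen, was 4.20 ± 0.54 on the log2 scale (edgeR adjusted p = 0.00326, 1 of 7 tested members called against 0.301% of all genes). DESeq2 called 0 members for this difference.

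**Figure D5:**
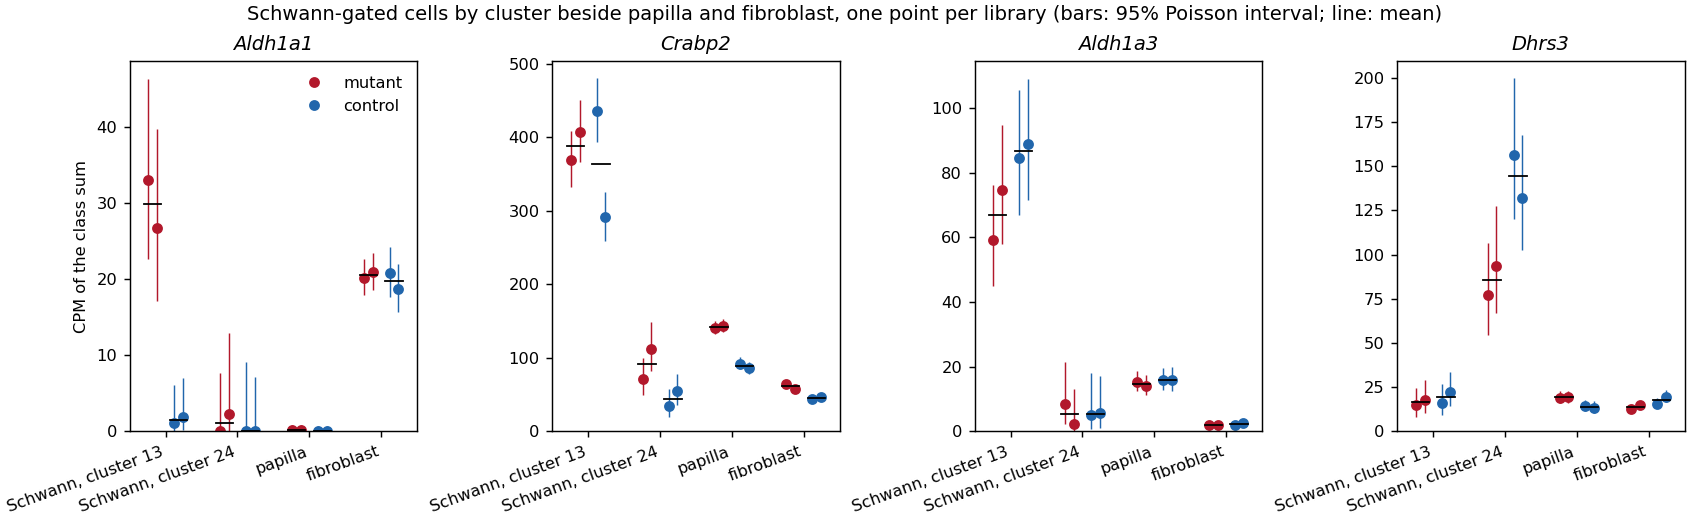
CPM of Aldh1a1, Crabp2, Aldh1a3 and Dhrs3 in the Schwann-gated cells of Leiden clusters 13 and 24 and in papilla-gated and fibroblast-gated cells, with 1 point per library and bars for the 95% Poisson interval. Mutant libraries (red) stand left of control libraries (blue). Aldh1a1 is near 30 CPM in cluster 13 of both mutant libraries and below 2 CPM in both control libraries.

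Aldh1a2 (ENSMUSG00000013584, chr9:71215789-71296243, plus strand), the dehydrogenase that makes most retinoic acid in the mouse embryo, was scarce in all classes. Over all kept cells it gave 61 and 44 UMIs in the mutant and 46 and 30 in the control libraries. Fibroblast-gated cells had 2.12 and 1.58 CPM in the mutant and 2.11 and 0.779 CPM in the control, with overlap and no call (log2 0.39, edgeR adjusted p = 0.624). Papilla-gated cells held 3 UMIs in all 4 libraries, against 74 in fibroblasts, and the class difference was called (log2 -3.91 ± 0.54, adjusted p = 0.000554).

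Aldh1a3 (ENSMUSG00000015134, chr7:66390890-66427517, minus strand), the third dehydrogenase of the family, was highest in Schwann-gated cells, at 42.7 and 50.6 CPM in the mutant and 60.4 and 60.3 CPM in the control, where the genotype difference was not called (log2 -0.36, edgeR adjusted p = 0.585). Cluster 13 had 59.1 and 74.7 CPM in the mutant and 84.7 and 89.0 CPM in the control, and cluster 24 had 8.37 and 2.34 CPM in the mutant and 4.96 and 5.83 CPM in the control. As for Crabp2, the cells rich in Scn7a thus held the higher level. Papilla-gated cells had 15.3 and 14.1 CPM in the mutant and 15.9 and 15.8 CPM in the control, the genotype difference being -0.06 (adjusted p = 0.829). Fibroblasts had 2.04 and 2.09 CPM in the mutant and 1.84 and 2.47 CPM in the control, and papilla was called higher than fibroblasts (log2 2.51 ± 0.14, adjusted p = 8.24e-06). T cell-gated cells had 14.1 and 13.3 CPM in the mutant and 23.2 and 20.4 CPM in the control, lower in the mutant with no overlap (log2 -0.74 ± 0.15, adjusted p = 0.00113), below the 2-fold minimum. T cell cluster 6, where Aldh1a3 gave 0 and 2 UMIs in the mutant and 0 and 1 in the control, made up 36.6% and 34.9% of the mutant and 18.1% and 15.8% of the control T cell gate. In the other main clusters, 3 and 8, the gene was not called (log2 -0.42 and -0.07).

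Dhrs3 (ENSMUSG00000066026, chr4:144892827-144928209, plus strand), the retinaldehyde reductase, was highest in melanocytes in both genotypes, followed by mast, endothelial, Schwann and bulge cells in an order that differed between genotypes, and it was lower in the mutant in most classes outside the papilla. Melanocyte-gated cells had 81.8 and 81.6 CPM in the mutant and 108 and 176 CPM in the control. These values came from 28 and 35 mutant and 30 and 36 control cells. The mast gate held 23 and 20 mutant and 24 and 21 control cells, so the places of both classes rest on few cells. Lymphatic endothelium had 53.3 and 61.5 CPM in the mutant and 60.1 and 57.9 CPM in the control, and blood endothelium 31.2 and 50.5 CPM in the mutant and 66.9 and 61.9 CPM in the control. The melanocyte and blood endothelial libraries did not overlap between genotypes, and neither class passed the test. Dhrs3 was tested in 13 classes, its estimate was below 0 in 12 and above 0 in papilla, and it passed the adjusted p in 4 of the lower classes and in papilla.

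T cell-gated cells had the called change of Dhrs3. It fell to 5.74 and 5.85 CPM in the mutant, against 16.4 and 13.8 CPM in the control, from 31 and 32 against 95 and 85 UMIs (log2 -1.45 ± 0.20, edgeR adjusted p = 3.74e-05). The call stood under all 12 alternatives, between -1.57 and -1.33. By cluster the mutant was lower in cluster 3 (3.23 and 7.33 CPM, against 14.8 and 12.5 CPM in the control), in cluster 6 (5.55 and 4.61, against 9.65 and 10.1 CPM) and in cluster 8 (9.85 and 6.40, against 19.0 and 11.4 CPM). Tested alone, after the data were seen, cluster 3 had 3 of 5 tested members called (all genes, 1.99%), Crabp1 (log2 1.67), Cyp26b1 (1.28) and Dhrs3 (-1.39), and each was lost without at least 1 library. The summed fibroblast markers of cluster 3 stood at 461 and 493 CPM in the mutant and 240 and 223 CPM in the control, and their part in the result was not tested. DESeq2 called none of them there. Clusters 6 and 8 had 0 called of 4 and 5 tested members (all genes, 0.531% and 0.699%), with 3 and 1 at an unadjusted p under 0.05 and 0 by DESeq2.

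Basal keratinocytes had 8.24 and 8.88 CPM of Dhrs3 in the mutant and 13.2 and 13.4 CPM in the control, lower in the mutant (log2 -0.66 ± 0.063, edgeR adjusted p = 1.18e-05). Suprabasal keratinocytes had 5.08 and 4.59 CPM in the mutant and 7.87 and 7.48 CPM in the control (log2 -0.68 ± 0.14, adjusted p = 0.0135), and bulge keratinocytes 34.9 and 27.6 CPM in the mutant and 43.6 and 44.6 CPM in the control (log2 -0.53 ± 0.16, adjusted p = 0.0472). The mutant libraries lay below both control libraries in each of the 3 classes, and each difference was below the 2-fold minimum. The adjusted p was 0.05 or more under 0 of 12 alternatives in basal, 4 of 12 in suprabasal and 9 of 12 in bulge cells (up to 0.188 and 0.346 in the last 2). Upper follicle keratinocytes, at 10.1 and 9.65 CPM in the mutant and 18.8 and 17.9 CPM in the control, missed the threshold (log2 -0.92 ± 0.20, adjusted p = 0.0594). In papilla Dhrs3 was higher, at 19.2 and 19.3 CPM in the mutant and 14.4 and 13.5 CPM in the control (log2 0.50 ± 0.16, adjusted p = 0.024), again below the minimum. That p was 0.05 or more under 5 of 12 alternatives, among them DESeq2 (0.269), the stricter gate (0.249) and the fits without mutant replicate 1, mutant replicate 2 or control replicate 2, and it was 0.0097 without the clusters of 1 genotype (log2 0.62). Fibroblasts had 12.8 and 15.1 CPM in the mutant and 15.7 and 19.7 CPM in the control, with no overlap and no call (log2 -0.31, adjusted p = 0.171).

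Cyp26b1 (ENSMUSG00000063415, chr6:84571414-84593908, minus strand), which degrades retinoic acid, was highest in fibroblasts and sheath cells and was higher in mutant than in control papilla cells. Fibroblast-gated cells had 403 and 410 CPM in the mutant and 460 and 420 CPM in the control, a difference that was not called (log2 -0.08 ± 0.055, edgeR adjusted p = 0.383). Sheath-gated cells had 288 and 325 CPM in the mutant and 418 and 381 CPM in the control, with no overlap and no call (log2 -0.31, adjusted p = 0.0998). Papilla-gated cells had 180 and 172 CPM in the mutant and 121 and 124 CPM in the control, higher in the mutant (log2 0.57 ± 0.074, adjusted p = 6.12e-06), below the 2-fold minimum. The fibroblast markers, whose sums in the papilla gate are given under Crabp1, were also higher in the mutant there, and their part in the result was not tested. Cluster 0 of the papilla gate had 234 and 223 CPM in the mutant and 121 and 124 CPM in the control, and cluster 14 had 54.2 and 63.8 CPM in the mutant. Without the clusters of 1 genotype the papilla difference was therefore larger (log2 0.98, adjusted p = 2.03e-10), still under the minimum.

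The difference between papilla and fibroblasts in genotype effect was tested itself. No member of 9 was called (all genes, 4.91%), 2 passed without the fold minimum (all genes, 15%), 4 had an unadjusted p under 0.05, and DESeq2 also called 0. The 2 were Cyp26b1 (log2 0.68 ± 0.087, edgeR adjusted p = 1.75e-05) and Dhrs3 (0.83 ± 0.21, adjusted p = 0.00846), both with the more positive effect in papilla. Dhrs3 reached 1.05 and was called without control replicate 1, while its adjusted p was 0.05 or more with DESeq2 (0.266), the stricter gate (0.0742), without mutant replicate 1 (0.0697) and without control replicate 2 (0.129). For Crabp1, lower in both classes, it was 0.04 ± 0.074 (adjusted p = 0.780).

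Across classes, Cyp26b1 was called lower in papilla than in fibroblasts (log2 -1.86 ± 0.15, adjusted p = 3.32e-05). The Pi16-gated fibroblasts, lowest for Crabp1, had 648 and 607 CPM of Cyp26b1 in the mutant and 623 and 545 CPM in the control, and Coch-gated ones 480 and 405 CPM in the mutant and 453 and 343 CPM in the control. The other fibroblasts had 329.9 and 371 CPM in the mutant and 410.05 and 435 CPM in the control, lower in the mutant and below the 2-fold minimum (log2 -0.24 ± 0.072, edgeR adjusted p = 0.0369), with an adjusted p of 0.05 or more under 3 of 8 alternatives. After thinning, 41.0% and 40.4% of mutant and 42.9% and 40.8% of control fibroblasts held a UMI of Cyp26b1 (unthinned, 63.1% and 65.7% of mutant and 68.9% and 70.3% of control fibroblasts). In T cell-gated cells Cyp26b1 rose to 8.88 and 10.4 CPM in the mutant, against 4.32 and 3.88 CPM in the control (log2 1.16 ± 0.24, edgeR adjusted p = 0.00172). The call was lost with DESeq2 (adjusted p = 0.0502) and without control replicate 2 (log2 1.09, adjusted p = 0.0727). Fibroblast RNA moved the same way in this gate: the 9 fibroblast markers, all detected, summed to 509 to 815 CPM in the mutant and 248 to 256 CPM in the control, and their part in the result was not tested. Bulge keratinocytes showed the like: Cyp26b1 at 31.8 and 26.3 CPM in the mutant and 14.5 and 18.6 CPM in the control (log2 0.77 ± 0.21, adjusted p = 0.0252, below the minimum), with fibroblast markers at 331 to 414 CPM in the mutant and 175 to 196 CPM in the control, at most 1 of the 9 at 0 in a library. The bulge result had an adjusted p of 0.05 or more under 5 of 12 alternatives (up to 0.218). In basal keratinocytes Cyp26b1 stood at 20.4 and 21.7 CPM in the mutant and 16.4 and 19.2 CPM in the control (adjusted p = 0.0371, and 0.05 or more under 5 of 12 alternatives, up to 0.315), with fibroblast markers at 371 to 389 CPM in the mutant and 255 to 264 CPM in the control.

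Rarb (ENSMUSG00000017491, chr14:16430839-16819156, minus strand), a retinoic acid receptor whose promoter carries the repeat printed above, was scarce and was the member called in papilla. Papilla-gated cells had 2.08 and 1.82 CPM in the mutant, from 14 and 12 UMIs, and 0.729 and 0.416 CPM in the control, from 4 and 2 UMIs. It rose by 1.75 ± 0.56 on the log2 scale (edgeR adjusted p = 0.0266). The call was lost without any 1 of the 4 libraries (adjusted p = 0.224 without mutant replicate 1, 0.160 without mutant replicate 2, 0.0793 without control replicate 1 and 0.219 without control replicate 2) and with DESeq2 (adjusted p = 0.317). The fitted change stayed between 1.43 and 2.22 under the 10 alternatives that gave a value. With the stricter gate and without the clusters of 1 genotype Rarb did not enter the test, so it has no value without cluster 14. Fibroblasts gave 11 and 16 UMIs in the mutant (0.78 to 1.15 CPM) and 4 and 2 in the control (0.26 to 0.53 CPM). These were too few for the genotype test within fibroblasts. The difference between the genotype effects in papilla and in fibroblasts could be tested for Rarb and was not called (log2 0.52 ± 0.97, edgeR adjusted p = 0.789). Sheath cells gave 0 UMIs in all 4 libraries. Rarb overlaps Top2b, which lies on the other strand and is also counted, and the sources used here do not say that counting used strand.

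Rarg (ENSMUSG00000001288, chr15:102234938-102257517, minus strand), the retinoic acid receptor typical of skin, was spread over epithelium and mesenchyme. Bulge keratinocytes were highest in both genotypes, at 78.0 and 66.1 CPM in the mutant and 59.6 and 56.3 CPM in the control (log2 0.28, edgeR adjusted p = 0.188). Papilla-gated cells had 48.5 and 56.1 CPM in the mutant and 49.95 and 53.9 CPM in the control, and the genotypes overlapped (log2 0.06, adjusted p = 0.745). Fibroblasts had 46.8 and 43.9 CPM in the mutant and 55.3 and 54.7 CPM in the control, lower in the mutant (log2 -0.25 ± 0.073, adjusted p = 0.0427), below the 2-fold minimum. Its adjusted p was 0.05 or more under 7 of 12 alternatives, and without the clusters of 1 genotype the difference was -0.09 (adjusted p = 0.576). The fibroblasts outside both subsets stood at 31.6 and 33.8 CPM in the mutant and 44.4 and 46.3 CPM in the control (log2 -0.44, adjusted p = 0.00931). Pi16-gated fibroblasts had 44.7 and 38.8 CPM in the mutant and 54.3 and 40.03 CPM in the control (log2 -0.15, adjusted p = 0.823), and the difference between subsets was not tested. Coch-gated fibroblasts had 83.7 and 69.8 CPM in the mutant and 69.9 and 72.4 CPM in the control, with overlap.

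Rarg was higher in suprabasal than in basal keratinocytes in both genotypes. Suprabasal cells had 55.0 and 53.3 CPM of Rarg in the mutant and 51.5 and 51.1 CPM in the control, against 27.9 and 28.1 CPM in mutant and 27.9 and 28.5 CPM in control basal cells. With each library as its own block, 4 of 7 tested members were called between suprabasal and basal cells, against 29% of all genes. These were Crabp2 (log2 3.37 ± 0.072, adjusted p = 5.06e-11) and Rarg (1.13 ± 0.039, adjusted p = 1.8e-09), both higher in suprabasal cells, Aldh1a1, lower there (-1.42 ± 0.20, adjusted p = 0.000105), and Aldh1a3 (1.05 ± 0.38, adjusted p = 0.0293). The Aldh1a3 call was lost under 6 of 12 alternatives, among them the fits without mutant replicate 1 and without control replicate 2.

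Upper follicle cells had 40.2 and 40.4 CPM of Crabp2 in the mutant and 52.9 and 35.9 CPM in the control. Of 8 tested members 4 were called higher there than in basal cells, against 15.5% of all genes called: Crabp2 (log2 2.44 ± 0.14, adjusted p = 4.39e-09), Aldh1a1 (1.14 ± 0.24, adjusted p = 0.00137), Aldh1a2 (2.06, adjusted p = 0.044) and Aldh1a3 (1.87 ± 0.34, adjusted p = 0.000373). Aldh1a2 rested on 3 and 0 UMIs in mutant and 2 and 4 in control upper follicle cells, and was lost without control replicate 1 and with DESeq2. For bulge against basal cells 3 of 8 tested members were called, close to the 37.3% of all genes: Dhrs3 (log2 1.26 ± 0.11, adjusted p = 2.35e-06), Aldh1a2 (2.55, adjusted p = 0.0166) and Aldh1a1 (-1.30, adjusted p = 0.0362). The last 2 were lost without control replicate 1 (Aldh1a2), and without mutant replicate 1, mutant replicate 2 or control replicate 2 (Aldh1a1).

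Other genes of the retinoid pathway were counted over a list of 25. In papilla-gated cells 2 of 15 tested rose in the mutant and 0 fell, against 5.62% of all genes called. Among them was Rdh5, a retinol dehydrogenase, at 11.6 and 12.8 CPM in the mutant and 3.46 and 5.82 CPM in the control (log2 1.45, edgeR adjusted p = 1.15e-04). In fibroblasts 3 of 19 tested rose and 0 fell (all genes, 1.95%), among them Stra6, the retinol transporter of the cell membrane (84 and 66 UMIs in the mutant, 4 and 0 in the control), and Nr2f2, an orphan nuclear receptor (46.1 and 41.1 CPM in the mutant, 20.8 and 19.6 CPM in the control). In basal keratinocytes 2 of 19 tested rose (all genes, 2.54%), Stra6 and Nr2f2, and in T cells 1 of 13 (all genes, 3.8%), Rbp4, the plasma carrier of retinol. The summed fibroblast markers, given under Cyp26b1, were also higher in the mutant in the basal and T cell gates, and their part in these results was not tested. In the other whole classes, bulge cells among them, 0 were called. Of 8 genes known to be induced by retinoic acid, mainly in other cells, 2 of 5 tested rose in papilla, Rarres2 among them, and 2 of 6 tested rose in fibroblasts, Stra6 among them, and none fell (all genes, 5.62% and 1.95%). There were 2 of 7 in basal keratinocytes, 1 of 3 in bulge cells and 1 of 4 in T cells, with none lower (all genes, 2.54%, 2.15% and 3.8%). The fibroblast markers were higher in the mutant in these gates too. Rarres2, which encodes the chemokine chemerin, stood at 17.5 and 16.9 CPM in mutant and 3.83 and 3.12 CPM in control papilla. Its highest class was fibroblasts, at 516 CPM in the control, and the fibroblast markers were also higher in the mutant papilla gate; their part in the result was not tested.

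Between classes, 6 of 19 tested list genes were lower and 0 higher in papilla than in fibroblasts (all genes, 30.3% called), Rbp4, Stra6, Adh1, Adh7, Rxrg and Nr2f1. In suprabasal against basal keratinocytes 8 of 17 were higher and 0 lower (all genes, 29%). Among them were Fabp5, a fatty acid carrier that also binds retinoic acid (log2 5.58), Adh1 (3.49) and Bco1, which cleaves carotene to retinaldehyde (3.28). Bco1 was scarce, its highest control means being 1.78 CPM in Langerhans and 1.01 CPM in bulge cells. Its suprabasal mean in the control was thus at most 1.01 CPM. Upper follicle cells had 4 of 19 higher than basal cells and 1 lower, Nr2f2 (all genes, 15.5%). Bulge cells had 5 of 18 higher and 0 lower, below the 37.3% of all genes called.

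Genes whose pattern over classes was most like that of a member were taken from the 30 sums of 15 classes in the 2 control libraries, among 6454 genes, by Pearson's r of log2(CPM + 10). The points share libraries, and the values are descriptions. Crabp1 was most like Dnm1 (r = 0.97), Scara5 and Cdh11 (both 0.95). Cyp26b1 was most like Gpr153 (0.96), Pcdh18 and Lrp1 (both 0.94). Lower values were found for Rarg with Tmem65 (0.89), Aldh1a3 with Ndnf (0.84), Crabp2 with Cab39l (0.83) and Dhrs3 with Matr3 (0.76).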

How the data were processed

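Droplet sequencing of 3′ tags (10x Genomics) gave 5 libraries of cells from female mouse dorsal skin. The values deposited for each library are whole-number UMI counts, not normalized, for every gene and barcode. Per the file headers the unsorted counts came from Cell Ranger 3.1.0, and the submitters' processing notes also name Cell Ranger 2.1.1, Seurat 3.2.2, Scanpy 1.6.0, mm10 and GRCm38. The sorted library was made with version 2 and the others with version 3 of the chemistry, per the labels' protocols, so no test was run between them. How multi-mapped or antisense reads were counted is not given in the sources used here. Coordinates come from GRCm38 in GENCODE M21.

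Cells were kept with 500 (sorted library, 300) to 8000 genes and at most 10% mitochondrial UMIs. Scrublet, in scanpy 1.11.5, removed 145 to 176 barcodes per unsorted library at scores over 0.25 and 0 from the sorted one. Free RNA was not subtracted. Cells were gated by marker scores whose thresholds were set with those scores in view, so class names are rebuilt here. Related classes were grouped in lineages, with papilla, fibroblast and sheath in 1 of them. Cells with markers of more than 1 lineage (300 to 366 per library) entered no class, nor did cells that met no class rule (870 to 1323). The latter can include cells with markers of more than 1 class of the same lineage, such as papilla and fibroblast. Near the threshold lay 17.7% of papilla-gated, 22.3% of sheath-gated and 9.8% of fibroblast-gated cells. Leiden clusters (leidenalg 0.10.2, resolution 1.0, 2000 variable genes without the members, 40 components) served as an alternative and to split classes.

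Counts were summed per library and class and tested with edgeR 4.0.16 in R 4.3.3 (TMM scaling, filterByExpr, quasi-likelihood test). Classes were compared with the library as a block. The SE is the log2 change divided by the square root of its F statistic. Adjusted p-values run over all genes tested. Per-library CPM are on the plain scale and log2 changes on the TMM scale. Intervals are exact 95% Poisson intervals, and with the limit of 3 counts for a count of 0 they cover counting error only. On simulated papilla counts (12536 genes) the edgeR step recovered 85% of 100 genes changed by log2 1 and 100% of 100 changed by log2 2 at an adjusted p under 0.05, with 12 false calls. The changed genes were drawn only from genes with more papilla UMIs than Rarb, so recovery at counts as low as those of Rarb was not tested. The simulated spread between libraries was a fixed setting and was not estimated from the data. Recovery was counted without the 2-fold minimum, so these shares do not give the recovery of the call rule. They are not split by level.

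Named are the 9 members throughout, the pathway genes that passed the call, and the 3 genes of most like pattern per member that reached 50 CPM in a class, of which 1 to 3 are printed. Some genes of the lists are not reported here by name. The members, lists and tests were chosen with earlier results of these data known. Alternatives were DESeq2 1.42.0, RLE factors in edgeR, no filter on low counts, each library left out, a stricter gate, Leiden classes, doublets kept, cells without the clusters of 1 genotype, the replicate number as a block, and, for shares of cells, 1000 UMIs per cell or at least 2 UMIs.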

Additional observations from a re-analysis of the deposited data

Results flagged for a closer look

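The genotype effect differed between classes for 3 members by the interaction term of edgeR. Between papilla-gated and fibroblast-gated cells the log2 effects differed by 0.68 for Cyp26b1 and by 0.83 for Dhrs3, with the more positive effect in papilla (adjusted p = 1.75e-05 and 0.00846). For Dhrs3 the adjusted p was 0.05 or more under 4 of 12 alternatives, up to 0.266, and for Cyp26b1 under 0 of 12. Between Schwann-gated and fibroblast-gated cells they differed by 4.20 for Aldh1a1 (adjusted p = 0.00326), where DESeq2 called 0 members. The Aldh1a1 difference rested on 33 and 25 UMIs in mutant and 1 and 2 UMIs in control Schwann-gated cells.

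For 5 members the level in the sorted library, with its 95% Poisson interval, lay above the unsorted control libraries over all kept cells. That interval covers counting error of 1 library only, and no test was run. Crabp1 had 4507 CPM in the 432 sorted cells, against 91.8 and 88.2 CPM in the control libraries. Crabp2 had 90.3 CPM in sorted cells, against 28.9 and 27.0 CPM in the control. Cyp26b1 had 68.8 CPM in sorted cells, against 49.8 and 47.4 CPM in the control. Dhrs3 had 32.2 CPM in sorted cells, against 14.7 and 14.98 CPM in the control. Rarg had 115 CPM in sorted cells, against 34.1 and 34.5 CPM in the control. The sorted library was selected for GFP, came from older mice and used another chemistry, which cannot be told apart here.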

How the results depend on the processing

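Of 28 called pairs of a member and a comparison, 11 lost the call under at least 1 alternative (33 of 293 values). Alternatives that gave a gene no adjusted p, as DESeq2 can, are not counted as losses. DESeq2 called 0 members in Schwann cluster 13 and 0 for the difference of effects between Schwann cells and fibroblasts, and neither is among the losses. Of 33 pairs that passed the adjusted p below the fold minimum, 17 had an adjusted p of 0.05 or more under at least 1 (70 of 378 values), and 8 values became calls. None of the 671 values changed sign. Of members called in papilla by genotype, 1 in the fit reported, 0 were called with DESeq2, with the stricter gate and without the clusters of 1 genotype (Rarb did not enter the test in the last 2), and 0 to 0 when 1 library was left out. By genotype in sheath cells 0 to 1 were called when 1 library was left out, the 1 being Crabp1 without control replicate 2. Between sheath cells and fibroblasts 1 to 2 were called when 1 library was left out, and 1 without the clusters of 1 genotype. For the difference of effects between papilla and fibroblasts the range was 0 to 1 when 1 library was left out, the 1 being Dhrs3 without control replicate 1. In T cells 2 were called with edgeR and 1 with DESeq2, in T cell cluster 3 it was 3 and 0, and in Pi16-gated fibroblasts 1 and 0. Leiden clusters gave no sheath or upper follicle class. The cause of these changes was not tested.

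The replicate numbers of mutant and control did not pair the libraries: the correlation of deviations lay between -0.0618 and 0.0584 in all but 2 of 15 classes (melanocyte 0.175, Langerhans -0.109). With the replicate block, 1 member was called in papilla and 0 in fibroblasts, sheath and each of the 4 keratinocyte classes, and 3 member and class pairs in the other classes. With no replicate block for the library, papilla against fibroblasts had 3, sheath against fibroblasts 2, suprabasal 4, upper follicle 3 and bulge against basal cells 2 called, and the difference of effects 0.

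Depth limits the scarce members: Rarb, Aldh1a2 and, outside fibroblasts, Aldh1a1 gave few UMIs, and a class missing from the test is not shown to be without change.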

Other observations

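In the sorted library Crabp1 was found in each class gated there. Papilla-gated cells (46 cells) had 7166 CPM, with a 95% Poisson interval of 6678 to 7680, and blood endothelial-gated cells (90 cells) had 3031 CPM (2834 to 3237). Fibroblast-gated cells (49 cells) had 1293 CPM (1064 to 1555). In 7 basal keratinocyte-gated and 6 T cell-gated cells Crabp1 stood at 794 and 1379 CPM. In the unsorted libraries T cells had 7.22 and 13.7 CPM in the mutant and 15.6 and 5.66 CPM in the control, and basal keratinocytes 2.95 and 4.52 CPM in the mutant and 2.52 and 2.68 CPM in the control. Free RNA in the sorted library was not measured. Cyp26b1 had 89.5 CPM in papilla-gated and 185 CPM in fibroblast-gated sorted cells. Among 1118686 sorted UMIs Aldh1a1 gave 4, Aldh1a3 gave 2, Rarb gave 1 and Aldh1a2 gave 0, which allows up to 2.68 CPM.

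Adh7, a retinol-oxidising alcohol dehydrogenase, and Rxrg, a partner of the retinoic acid receptors, chosen after their values were seen, also had their highest control level in Schwann-gated cells. Adh7 had 69.8 and 77.3 CPM in the mutant and 154 and 126 CPM in the control, with no overlap between genotypes. It was lower in the mutant (log2 -0.91 ± 0.14, SE, edgeR adjusted p = 0.0107), below the 2-fold minimum. Rxrg had 54.2 and 58.7 CPM in the mutant and 46.8 and 73.0 CPM in the control, with overlap.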
